A study of Mus musculus with 7 samples.

Results

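The genes described here are 33 genes of cholesterol and fatty acid synthesis that are targets or regulators of the SREBP transcription factors, taken by name from the 17209 genes of the deposited table. All 33 were listed there. They comprise 18 enzymes of the sterol pathway, the sterol carrier Stard4, 5 regulators and 9 enzymes of fatty acid synthesis and desaturation. The table holds 7 RNA-seq libraries of muscularis macrophages, which lie among the smooth muscle and nerves of the gut wall. Cells positive for CX3CR1-GFP, a reporter of the fractalkine receptor, were sorted from the peeled muscle layer of the mouse small intestine (genotype given as C57BL6/J) 24 h after surgery. Sham surgery gave 4 libraries, numbered Sham 1 upwards, and pMCAO surgery, which the series title calls stroke, gave 3, numbered alike. The description of pMCAO 3 names a pool, and the labels give neither age nor sex and do not say whether each pMCAO library came from a single animal, so the p-values reflect only the spread among these samples.

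Sterol and fatty acid synthesis both start from cytosolic acetyl-CoA. SREBP proteins are made as inactive precursors in the endoplasmic reticulum, where SCAP escorts them to the Golgi for cleavage when sterols are low and INSIG proteins hold SCAP back when sterols are high. SREBP2, from Srebf2, acts mainly on sterol genes, and SREBP1c, from Srebf1, acts mainly on fatty acid genes and is itself induced by the oxysterol receptor LXR. Macrophages take up much of their cholesterol with lipoproteins and engulfed cells, so that synthesis, uptake and efflux are balanced against each other.

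Levels are CPM (read counts relative to the library's total) after scaling by TMM factors, and values of single libraries are listed in order of replicate number. All log2 changes are pMCAO minus sham, and a gene was called when the adjusted p of the edgeR quasi-likelihood test over all genes was under 0.05. Total counts were 12685941 to 34432716 per library. The macrophage markers were all measured (8 of 8) and summed to 6472 to 8176 CPM after sham surgery and 6071 to 6656 CPM after pMCAO. Of these 8 only Mertk had a positive log2 change, and the median of the 8 was -0.36, against -0.02 over all genes. In the same libraries 7 fibroblast markers of 8 listed summed to 52.9 to 163 CPM after sham surgery and 104 to 532 CPM after pMCAO, and 8 blood endothelial markers of 8 to 126 to 335 CPM and 391 to 547 CPM. The mitochondrial ribosomal RNAs took 2.42% to 5.82% of counts after sham surgery and 8.26% to 12.6% after pMCAO. Of 10 adipocyte markers 3 were in the table (Cfd, Plin4 and Aqp7), and they summed to 77.9 CPM in pMCAO 2 against 5.03 to 14.3 CPM in the other libraries. Most of that sum was Cfd, at 58.3 CPM in pMCAO 2, and Plin4 (5.37 CPM) and Aqp7 (14.2 CPM) were also highest there. Adipoq, Plin1 and Cidec were among the markers not listed. In bulk samples fewer cells of a type and less RNA per cell cannot be told apart.

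Of the 33 genes 0 were called by edgeR, against 0.0988% of all genes tested (0.0291% lower and 0.0697% higher). At an unadjusted p under 0.05 by edgeR, 7 members had lower values after pMCAO and 0 had higher ones, which is 21.2% of the members. Over all genes 13.4% passed that level, 6.47% lower and 6.97% higher. The 7 were Pmvk, Fdps, Cyp51 and Dhcr7 of the sterol pathway, the regulator Srebf2, and Fasn and Fads1 of fatty acid synthesis. In 6 of them, all but Fads1, every pMCAO library lay below every sham library. No other member showed that pattern, so it held for 18.2% of the 33 members, against 6.58% of all genes. No member had every pMCAO library above every sham library, against 5.99% of all genes. With DESeq2 2 members were called (Fasn and Pmvk), where 2.77% of all genes were. With limma-voom 0 members were called (0.203% of all genes), and with sample quality weights 1 was (Fasn), where 4.75% of all genes were. By the authors' deposited table, 0 members had an FDR under 0.05 (0.0814% of all genes), and the smallest FDR, that of Fasn, was 0.133. At p under 0.05 in the authors' deposited table, 5 members lay lower (Fasn, Fads1, Mvk, Scap and Srebf2; 9.69% of all genes) and 1 higher (Scd2; 6.98%), and 8 members, 6 of them sterol enzymes, had the other sign than in the fit described here.

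**Figure D1:**
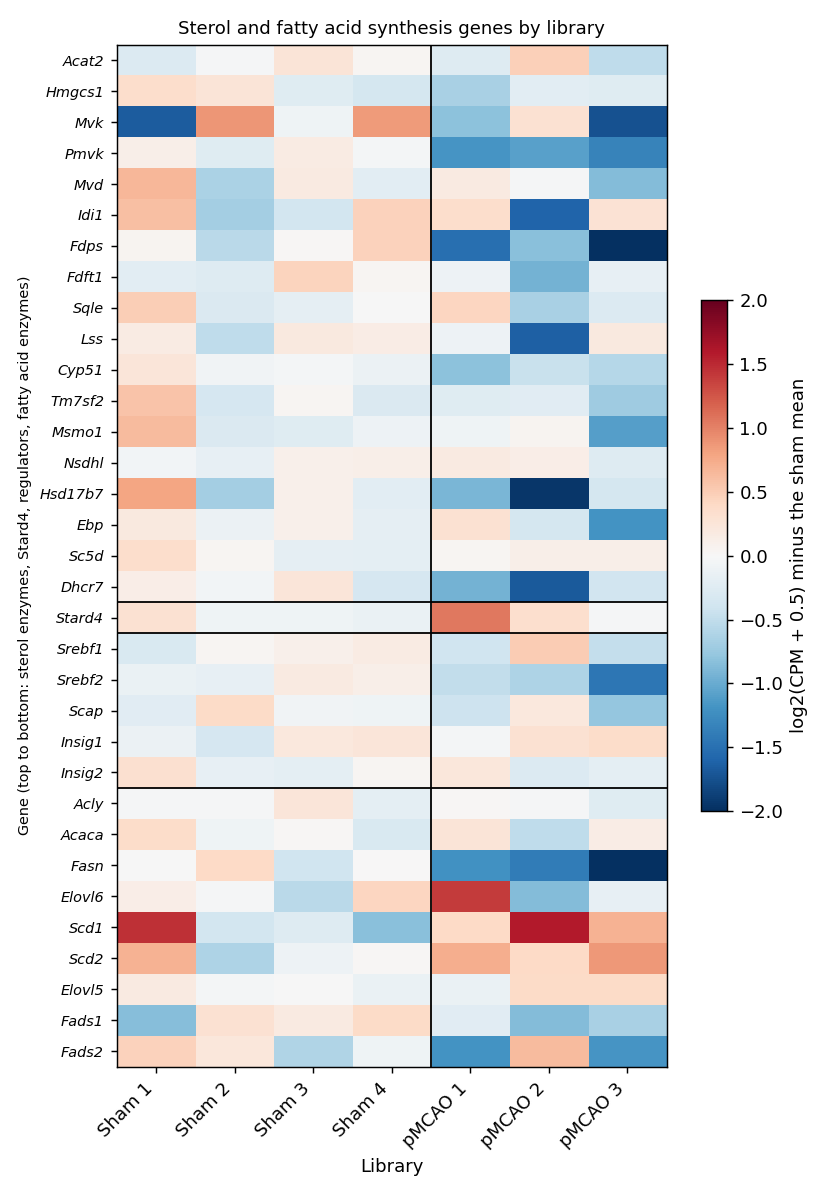
Heat map of the 33 genes (vertical axis, grouped by role) in the 7 libraries (horizontal axis); colour gives log2(CPM + 0.5) minus the mean of the sham libraries and saturates at 2 in either direction. Pmvk, Fdps, Cyp51, Dhcr7, Srebf2 and Fasn are blue in every pMCAO library, while Scd1 is red in Sham 1 (33.5 CPM) and pMCAO 2 (36.6 CPM).

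The promoter sequences were searched for 2 motifs. The genes were chosen as targets or regulators of SREBPs, so the search is not independent of that choice. RefSeq promoter windows for build GRCm38.p6, from 250 bases before to 50 bases after the start, were matched by symbol for 26 of the 33 genes. The letters CCAAT, the box bound by NF-Y, a factor known to cooperate with SREBPs, were searched on both strands (CCAAT or ATTGG). They were in a window of 14 of the 15 sterol enzyme genes with an entry (93.3%; the exception was Acat2). By window they were in 14 of the 18 of these genes (77.8%), and Dhcr7 held them only in the most downstream of its windows. They were also in a window of 4 of the 5 regulators, which had 10 windows of which 5 held one. Of the 6 fatty acid genes 3 had one (50%). Of the 10548 genes of the deposited table with an entry 42.3% had one, and of their windows 37.2%. No enrichment was tested. At least 2 such boxes in a single window occurred in 9 of the 15 sterol enzyme genes (60.0%) and in 16% of the genes of the table. The sterol regulatory element was searched only as the pattern TCACNCCAC, on both strands. That pattern was in 1 of the 26 genes, Hmgcs1, and in 1.37% of the genes of the table. Stretches that differ from it in any fixed letter were not counted, so a gene without a match may hold another form. A match is a description of the letters and not a binding site. The stretches below lie upstream of 5 starts, outside annotated exons, and were chosen to show the element (Hmgcs1), the gene with most boxes (Mvk), and 3 genes whose groups did not overlap (Pmvk, Srebf2 and Fasn). Each is 150 bases, 5′ to 3′ on the gene's strand, with CCAAT boxes and matches to TCACNCCAC in capitals. The boxes of Fasn include an overlapping pair. The positions are chr13:119690201-119690350 (plus strand) for Hmgcs1, chr5:114444119-114444268 (plus) for Mvk, chr3:89454391-89454540 (plus) for Pmvk, chr15:82147031-82147180 (plus) for Srebf2 and chr11:120824548-120824697 (minus) for Fasn.
Hmgcs1: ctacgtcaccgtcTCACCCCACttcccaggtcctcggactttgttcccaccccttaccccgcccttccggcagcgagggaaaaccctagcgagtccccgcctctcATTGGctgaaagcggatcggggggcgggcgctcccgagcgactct
Mvk: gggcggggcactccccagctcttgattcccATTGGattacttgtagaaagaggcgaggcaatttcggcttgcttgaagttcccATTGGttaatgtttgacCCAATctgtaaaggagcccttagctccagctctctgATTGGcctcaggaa
Pmvk: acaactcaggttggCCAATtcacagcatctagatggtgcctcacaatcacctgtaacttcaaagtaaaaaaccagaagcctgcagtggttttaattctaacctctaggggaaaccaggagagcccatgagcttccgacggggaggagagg
Srebf2: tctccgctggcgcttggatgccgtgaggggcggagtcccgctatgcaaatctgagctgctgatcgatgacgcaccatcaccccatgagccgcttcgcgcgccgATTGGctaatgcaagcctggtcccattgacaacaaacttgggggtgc
Fasn: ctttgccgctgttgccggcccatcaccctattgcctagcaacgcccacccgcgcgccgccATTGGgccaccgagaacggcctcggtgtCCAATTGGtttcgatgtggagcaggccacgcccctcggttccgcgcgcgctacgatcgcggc

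The sterol enzymes had mostly lower values after pMCAO in the edgeR fit. Of 18, 16 had a lower and 2 (Nsdhl and Sc5d) a higher fitted value, with a median log2 change of -0.38, while 51.4% of all genes tested had a lower one and their median was -0.02. By the authors' deposited table the split was closer to that of all genes, with 10 of the 18 lower and 8 higher (55.6% lower, against 51.6% of all genes) and a median of -0.29 (-0.03 over all genes). The 6 enzymes lower in the edgeR fit but higher in the authors' deposited table were Fdft1 (0.12), Hsd17b7 (0.10), Idi1 (1.23), Lss (0.61), Mvd (0.22) and Sqle (0.32). The enzymes called numbered 0 by edgeR (0.0988% of all genes), and 4 of 18 (22.2%) lay lower at an unadjusted p under 0.05 (6.47% of all genes). The lowest of the 7 libraries was a pMCAO library for 17 of 18 enzymes and for 51.7% of all genes, and the exception was Sc5d, lowest in Sham 4. The lowest value was in pMCAO 3 for 9 enzymes (50%) and in pMCAO 2 for 6 (33.3%), and the highest was in Sham 1 for 9 (50%). Over all genes of at least 1 CPM on average, those shares were 21%, 16.2% and 14.2%. Sham 1 also had the highest summed intestinal epithelial markers, 44.0 CPM against 10.9 to 32.2 CPM elsewhere, and the highest T cell markers, 64.8 CPM against 13.8 to 47.5 CPM. The part of these markers, and of the higher mitochondrial ribosomal share after pMCAO, in the result was not tested. Nor was that of the macrophage markers, whose median log2 change was -0.36. Without Sham 1 the median of the enzymes was -0.25.

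In the first steps, from acetyl-CoA to mevalonate and its phosphates, Pmvk had groups that did not overlap. Pmvk encodes phosphomevalonate kinase, and lies on chromosome 3 from 89454541 to 89469013 of GRCm38. It was at 8.67, 6.67, 9.03 and 7.75 CPM in the sham libraries and at 3.25, 3.48 and 2.86 CPM in the pMCAO libraries. All pMCAO libraries lay below all sham libraries, with means of 8.03 ± 1.06 CPM (SD, n = 4) and 3.20 ± 0.315 CPM (SD, n = 3). The log2 change was -1.33 (SE 0.40, adjusted p = 0.192 by edgeR), and by DESeq2 it was -1.31 (adjusted p = 0.0387, with 0.0387 to 0.870 over the alternatives). Its neighbours in the pathway did not show that pattern. Mvk, mevalonate kinase, ranged from 0.975 CPM in Sham 1 to 8.09 CPM in Sham 2 within the sham group alone, and its log2 change of -0.92 had an SE of 0.72. It was -1.80 without pMCAO 2 and -0.50 without pMCAO 3, and -2.61 in the authors' deposited table. Hmgcs1, the synthase that makes HMG-CoA, was at 40.2 ± 9.71 CPM (SD, n = 4) after sham surgery and 30.6 ± 4.98 CPM (SD, n = 3) after pMCAO, with overlapping groups (log2 change -0.39, SE 0.24). The thiolase Acat2 (-0.05) and the decarboxylase Mvd (-0.28) overlapped between groups as well.

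In the steps from isoprenoids to squalene, Fdps was the lowest of the sterol enzymes per length of exon, at a mean of 0.563 CPM per kb. It encodes farnesyl diphosphate synthase (chromosome 3, 89093588 to 89101959), which feeds both sterols and protein prenylation. Its values were 3.49, 2.15, 3.43 and 4.78 CPM in the sham libraries and 0.855, 1.65 and 0.224 CPM in the pMCAO libraries. All pMCAO libraries lay below all sham libraries, but on few reads, with 10, 35 and 4 counts in the pMCAO libraries. The log2 change was -1.91 (SE 0.74, adjusted p = 0.284 by edgeR). A coding gene on the same strand, Gm43738, covers 26.7% of its exon bases, so its counts are uncertain. Fdft1, squalene synthase, was at 34.4 ± 8.22 CPM (SD, n = 4) and 26.2 ± 7.82 CPM (SD, n = 3), and 18.3% of its exon bases overlap Ctsb, a lysosomal protease gene on the other strand. Without a stated strand setting reads of such partners cannot be told apart. Squalene epoxidase, Sqle, one of the control points of the pathway, overlapped between groups at 21 ± 5.54 CPM (SD, n = 4) and 19.2 ± 7.74 CPM (SD, n = 3), and so did the isomerase Idi1 (log2 change -0.23, SE 0.73).

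From lanosterol to cholesterol, Cyp51 and Dhcr7 had groups that did not overlap. Cyp51, the lanosterol demethylase (chromosome 5, 4081145 to 4104746), was at 31.9, 25.5, 26.2 and 24.7 CPM in the sham libraries and at 15.0, 19.6 and 17.9 CPM in the pMCAO libraries. All 3 pMCAO values lay under the lowest sham value, that of Sham 4. The log2 change was -0.63 (SE 0.24, adjusted p = 0.283 by edgeR). Dhcr7 encodes the reductase of the last step of cholesterol synthesis (chromosome 7, 143823145 to 143848410). It was at 14.4, 12.6, 15.6 and 10.3 CPM in the sham libraries and at 6.58, 3.72 and 9.87 CPM in the pMCAO libraries. The groups were close to touching, with pMCAO 3 just under Sham 4, and the log2 change was -0.97 (SE 0.38, adjusted p = 0.291 by edgeR). Hsd17b7, a sterol ketone reductase, was at 7.49, 2.41, 4.49 and 3.52 CPM in the sham libraries and at 1.97, 0.706 and 3.14 CPM in the pMCAO libraries. Its groups overlapped, since pMCAO 3 lay above Sham 2 (log2 change -1.21, SE 0.64).

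The other enzymes of this stretch overlapped between groups. Lss, the cyclase that forms lanosterol, was at 12.3 and 15.2 CPM in pMCAO 1 and pMCAO 3, within the sham range of 9.12 to 15.1 CPM or just above it, and at 3.91 CPM in pMCAO 2. Without pMCAO 2 its log2 change was 0.04, against -0.36 over all libraries. Ebp, the sterol isomerase, had the highest level per exon length of the sterol enzymes, a mean of 10.6 CPM per kb. It was at 30.6, 24.4, 28.5 and 23.4 CPM in the sham libraries and at 33.0, 20.6 and 11.3 CPM in the pMCAO libraries, so that a pMCAO library was both highest and lowest. Nsdhl (log2 change 0.03, SE 0.30) and Sc5d (0.08, SE 0.28), a decarboxylating dehydrogenase and a desaturase, had differences smaller than their standard errors. Msmo1, the methyl sterol monooxygenase, and Tm7sf2, a sterol reductase, had log2 changes of -0.35 and -0.45. Stard4, which carries cholesterol between membranes, was at 26.3, 19.8, 19.9 and 19.2 CPM in the sham libraries and at 44.2, 26.9 and 20.7 CPM in the pMCAO libraries. Only pMCAO 1 and pMCAO 2 lay above all sham libraries (log2 change 0.52, SE 0.28, adjusted p = 0.433 by edgeR), and without pMCAO 1 the log2 change was 0.16.

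**Figure D2:**
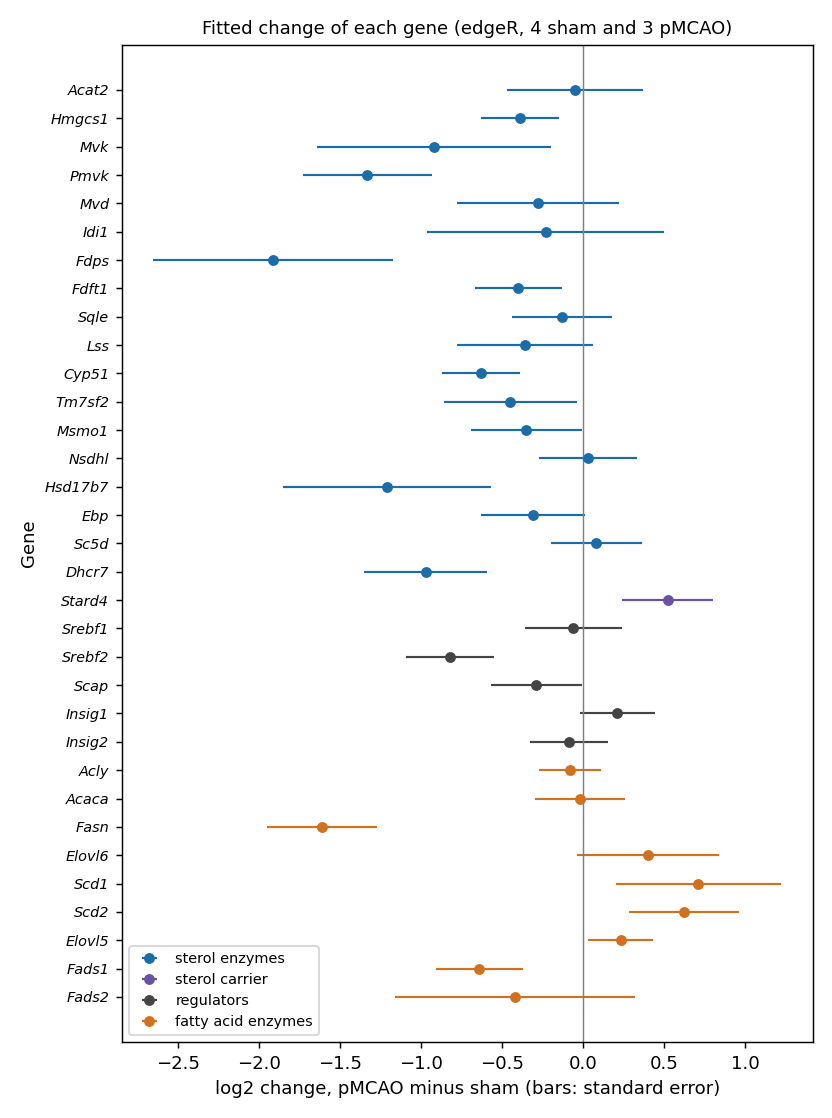
Fitted log2 change of each gene (horizontal axis, pMCAO minus sham; bars are standard errors) by gene (vertical axis) and role (colour). The sterol enzymes lie mostly left of zero, from -1.91 for Fdps to 0.08 for Sc5d, and the fatty acid enzymes lie on both sides, from -1.61 for Fasn to 0.71 for Scd1.

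Among the 5 regulators Srebf2 alone had groups that did not overlap. Srebf2, the precursor gene of SREBP2 (chromosome 15, 82147181 to 82205379), was at 32.9, 32.2, 41.0 and 39.5 CPM in the sham libraries and at 25.6, 23.5 and 13 CPM in the pMCAO libraries. Each pMCAO library lay under the lowest sham library, and the log2 change was -0.82 (SE 0.27, adjusted p = 0.210 by edgeR). Srebf1, whose counts hold the transcripts of SREBP1a and SREBP1c together, was at 16.3, 20.8, 21.8 and 22.9 CPM in the sham libraries and at 15.2, 29.1 and 14.4 CPM in the pMCAO libraries. It was highest in pMCAO 2 and lowest in the other pMCAO libraries, with a log2 change of -0.06 (SE 0.30). Its sign turned without pMCAO 1 (0.09) and without pMCAO 3 (0.12), while without pMCAO 2 the log2 change was -0.47. The escort gene Scap was at 22.7, 35.2, 25.6 and 25.1 CPM in the sham libraries and at 20, 31.2 and 15.5 CPM in the pMCAO libraries, with overlap through pMCAO 2 (log2 change -0.29, SE 0.28).

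The retention genes overlapped between groups. Insig1, itself a target of SREBPs, was at 29.8, 25.6, 37.7 and 38.6 CPM in the sham libraries and at 31.6, 40.4 and 41.9 CPM in the pMCAO libraries (log2 change 0.21, SE 0.23). Insig2 was at 35.9, 25.5, 25.0 and 29.4 CPM in the sham libraries and at 33.5, 23.5 and 25.0 CPM in the pMCAO libraries (log2 change -0.09, SE 0.24). Both log2 changes were smaller than their standard errors, and neither gene was called.

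Ratios of paired genes within a library do not depend on the scaling factor, and 4 pairs were compared. Srebf1 per Srebf2 was 0.496, 0.646, 0.534 and 0.579 in the sham libraries and 0.596, 1.24 and 1.11 in the pMCAO libraries. The ratio was above the sham range in pMCAO 2 and pMCAO 3 and inside it in pMCAO 1. The log2 ratio differed by 0.74 (exact permutation test, two-sided, p = 0.114, adjusted p = 0.457 over the 4 pairs), in a design that cannot go below 0.0571. Insig1 per Insig2 differed by 0.30 (exact p = 0.343, adjusted p = 0.686), Scd1 per Scd2 by 0.24 (exact p = 0.80, adjusted p = 0.80) and Fads1 per Fads2 by 0.21 (exact p = 0.743, adjusted p = 0.80). None of the 4 passed.

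The fatty acid enzymes went both ways. Of 9, 5 had a lower and 4 a higher fitted value, with a median log2 change of -0.02, equal to that of all genes tested. Called by edgeR were 0 (0.0988% of all genes), and 2 of 9 (Fasn and Fads1, 22.2%) lay lower at an unadjusted p under 0.05 (6.47% of all genes). By the authors' deposited table, 4 lay lower and 5 higher, with a median of 0.20. Without pMCAO 2 the median was 0.15, and with the adipocyte marker score as a covariate it was 0.23.

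Fasn was the member with the smallest p of all 33. It encodes fatty acid synthase, the multidomain enzyme that builds palmitate, and lies on chromosome 11 from 120805846 to 120824547. It was at 19.1, 25.3, 14.4 and 19.2 CPM in the sham libraries and at 7.95, 6.92 and 4.37 CPM in the pMCAO libraries. Every pMCAO library lay below every sham library, with counts of 93, 147 and 78 in the pMCAO libraries. The mean was 19.5 ± 4.49 CPM (SD, n = 4) after sham surgery and 6.41 ± 1.84 CPM (SD, n = 3) after pMCAO, a log2 change of -1.61 (SE 0.34, adjusted p = 0.0718 by edgeR). Over genes of at least 5 CPM on average the adjusted p was 0.0429, in a test that called 0.647% of genes, and over the alternatives it ranged from 0.000585 by DESeq2 to 0.780 with the fibroblast and endothelial score as a covariate. The log2 change ranged from -1.98 to -1.39 over the same alternatives. In the authors' deposited table its log2 change was -2.16.

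The enzymes that make the substrates of Fasn had overlapping groups. Acly, the citrate lyase that makes cytosolic acetyl-CoA, was at 56.3 ± 7.33 CPM (SD, n = 4) and 53.1 ± 5.24 CPM (SD, n = 3), with a log2 change of -0.08 (SE 0.19). Acaca, the carboxylase that makes malonyl-CoA, was at 20.2 ± 4.11 CPM (SD, n = 4) and 19.9 ± 5.37 CPM (SD, n = 3), with a log2 change of -0.02 (SE 0.28). Whether Fasn differed from these in its change was not tested.

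**Figure D3:**
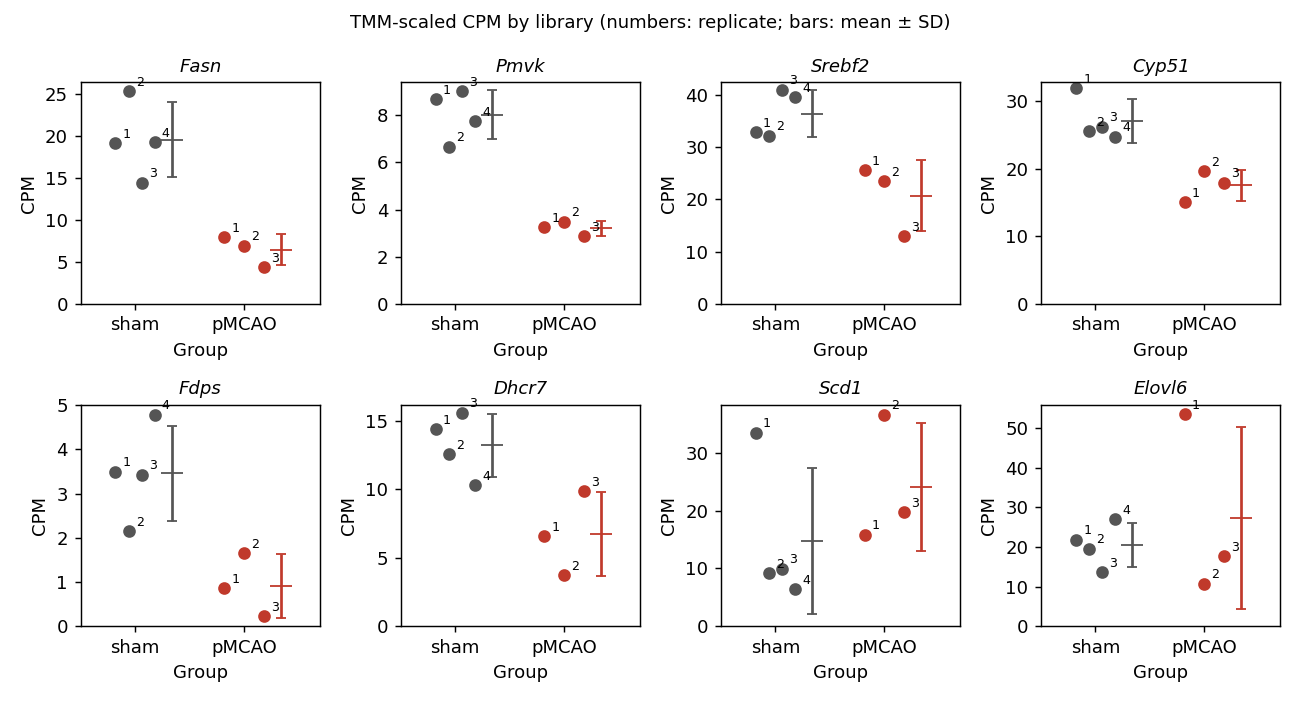
TMM-scaled CPM (vertical axis, from 0) of 8 genes in each sham and pMCAO library (points, numbered by replicate; bars are mean ± SD, n = 4 and 3). The groups of Fasn, Pmvk, Srebf2, Cyp51, Fdps and Dhcr7 do not overlap, while those of Scd1 and Elovl6 do, with Scd1 at 33.5 CPM in Sham 1 and Elovl6 at 53.5 CPM in pMCAO 1.

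The desaturase genes Scd1 and Scd2 had groups that overlapped through Sham 1 alone. Scd1, the stearoyl-CoA desaturase that makes oleate, was at 33.5, 9.16, 9.94 and 6.43 CPM in the sham libraries and at 15.8, 36.6 and 19.7 CPM in the pMCAO libraries. Sham 1 lay with the highest pMCAO library, and the other sham libraries lay below all pMCAO libraries. The log2 change was 0.71 (SE 0.51, adjusted p = 0.577 by edgeR), 1.50 without Sham 1 and 0.27 without pMCAO 2, the library with the high adipocyte markers, whose part in the value was not tested beyond these fits. With the adipocyte score as a covariate it was 0.40. Its paralog Scd2 (chromosome 19, as is Scd1) was at 17.9, 6.88, 10.1 and 11 CPM in the sham libraries and at 18.3, 14.5 and 20.1 CPM in the pMCAO libraries. As for Scd1, only Sham 1 reached the pMCAO range (log2 change 0.62, SE 0.34, adjusted p = 0.447 by edgeR). Reads common to such paralogs make either count uncertain. In the authors' deposited table Scd2 was the member that lay higher at p under 0.05 (log2 change 1.49).

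Elovl6, the elongase of palmitate, falls outside the rule for genes given in full and was chosen after its values were seen. It was at 21.9, 19.6, 13.6 and 27.1 CPM in the sham libraries and at 53.5, 10.7 and 17.7 CPM in the pMCAO libraries. Both the highest and the lowest library were pMCAO libraries, and the log2 change turned from 0.40 to -0.53 without pMCAO 1. Elovl5, the elongase of polyunsaturated fatty acids, was the most abundant fatty acid enzyme per exon length (17.5 CPM per kb). It was at 65.3, 55.6, 56.9 and 52.3 CPM in the sham libraries and at 52.0, 75.2 and 75.2 CPM in the pMCAO libraries, with overlapping groups (log2 change 0.23, SE 0.20).

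The front-end desaturases differed greatly in level. Fads1, the delta-5 desaturase on the way to arachidonate, was close to Elovl5 in level at 17.3 CPM per kb, while Fads2, the delta-6 desaturase, was the lowest fatty acid enzyme at 0.675 CPM per kb. Fads1 (chromosome 19, 10182888 to 10196877) was at 51.4, 115, 105 and 121 CPM in the sham libraries and at 79.4, 50.8 and 59.5 CPM in the pMCAO libraries. The other sham libraries lay above all pMCAO libraries, but Sham 1 lay among them. The log2 change was -0.64 (SE 0.27, adjusted p = 0.328 by edgeR) and -0.85 without Sham 1. Fads2 was at 3.49, 2.88, 1.41 and 2.23 CPM in the sham libraries and at 0.769, 4.00 and 0.785 CPM in the pMCAO libraries, highest in pMCAO 2 (log2 change -0.42, SE 0.74). The log2 change of Fads2 was -1.68 without pMCAO 2, -0.06 without pMCAO 1 and -0.05 without pMCAO 3.

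The sterol and the fatty acid arm were also set side by side in each library. The score of an arm is the mean of log2(CPM + 0.5) over its genes in a library, minus the mean of the sham libraries. The sterol score was 0.17, -0.21, 0.03 and 0.01 in the sham libraries and -0.34, -0.59 and -0.64 in the pMCAO libraries. Its groups did not overlap. The fatty acid score was 0.27, -0.03, -0.16 and -0.08 in the sham libraries and 0.00, -0.07 and -0.24 in the pMCAO libraries. Its groups overlapped. The sterol score minus the fatty acid score was -0.10, -0.18, 0.19 and 0.09 in the sham libraries and -0.34, -0.51 and -0.40 in the pMCAO libraries, with every pMCAO library below every sham library. This difference does not depend on the scaling factor of a library except through the pseudocount, and it is given with no test because the genes were chosen with earlier results known. In summed CPM the sterol enzymes were at 268 ± 31.6 (SD, n = 4) and 205 ± 20.7 (SD, n = 3), and the fatty acid enzymes at 301 ± 6.42 (SD, n = 4) and 281 ± 23.7 (SD, n = 3). With the score of fibroblast and endothelial markers as a covariate the medians were -0.43 for the sterol and 0.01 for the fatty acid enzymes. That edgeR fit called 0 of all genes. In it 2 members had an unadjusted p under 0.05 (5.88% of all genes), against 7 without the covariate. The score was 3.25 to 4.77 in the sham libraries and 4.57 to 5.65 in the pMCAO libraries. Score and surgery thus went largely together, and this fit cannot tell them apart well.

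**Figure D4:**
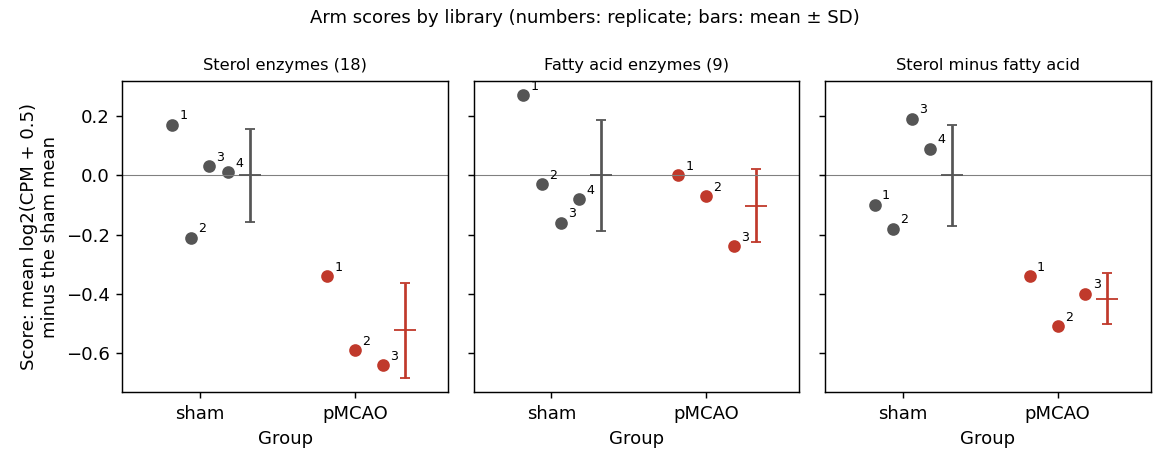
Arm scores (vertical axis, mean log2(CPM + 0.5) minus the sham mean) in each library by group (points, numbered by replicate; bars are mean ± SD, n = 4 and 3). The sterol scores of the pMCAO libraries, -0.34 to -0.64, lie below all sham libraries, the fatty acid scores overlap, and the difference of the arms does not.

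Further genes of these pathways were taken from 3 lists, on SREBP processing, fatty acid supply and cholesterol handling, and 0 of them were called by edgeR (0.0988% of all genes). At an unadjusted p under 0.05, 0 of 4 processing genes passed, 1 of 10 fatty acid genes lay lower (Slc25a1), and of 12 genes of LXR and cholesterol handling 3 lay lower (Apoe, Npc2 and Ch25h) and 2 higher (Mylip and Soat1). Over all genes 13.4% passed that level, 6.47% lower and 6.97% higher. Among 4 genes of SREBP processing and retention, those with the lowest p were the site-2 protease gene Mbtps2 (log2 change 0.42, SE 0.24) and Erlin1 (-0.18, SE 0.17). The coding gene Yy2 covers 28.4% of the exon bases of Mbtps2 on the same strand, so the counts of Mbtps2 are uncertain.

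Among 10 other fatty acid genes, Slc25a1, the mitochondrial citrate carrier that exports the substrate of Acly, was at 8.37, 12.5, 12.3 and 14.1 CPM in the sham libraries and at 5.98, 5.04 and 6.67 CPM in the pMCAO libraries. All pMCAO libraries lay below all sham libraries (log2 change -1.0, SE 0.35, adjusted p = 0.248 by edgeR). That pattern held for 2 of the 10 genes, against 6.58% of all genes. The other was Pnpla3, at 0.522 to 1.28 CPM in the sham libraries and 0 to 0.424 CPM in the pMCAO libraries. It rested on few reads, with 0, 9 and 4 counts in the pMCAO libraries. Thrsp, an inducible lipogenic gene, had a log2 change of 1.34 (SE 0.68) with overlapping groups. Among 12 genes of LXR and cholesterol handling, 2 had every pMCAO library above every sham library, against 5.99% of all genes. In 0 of them every pMCAO library lay below every sham library, against 6.58% of all genes. Mylip, an LXR target that encodes a ubiquitin ligase, was at 47.7, 58.5, 41.4 and 54.9 CPM in the sham libraries and at 97.2, 87.3 and 86.2 CPM in the pMCAO libraries (log2 change 0.83, SE 0.19, adjusted p = 0.0899 by edgeR). Soat1, which esterifies cholesterol for storage, was at 111 ± 12.6 CPM (SD, n = 4) and 156 ± 10.1 CPM (SD, n = 3), a log2 change of 0.48 (SE 0.16, adjusted p = 0.233 by edgeR). Other genes of this list lay lower, with overlapping groups. Apoe was at 6061 ± 1679 CPM (SD, n = 4) and 3320 ± 1574 CPM (SD, n = 3), a log2 change of -0.87 (SE 0.31). Npc2 and Ch25h had log2 changes of -0.51 (SE 0.21) and -1.06 (SE 0.44).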

How the data were processed

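RNA-seq was made from 7 libraries, each from 2.0 ng of total RNA with the Trio kit after ribosomal RNA removal, per the labels' protocols. The deposited read counts per gene come from the authors, whose tools were STAR, featureCounts and limma on GRCm38 (mm10), per the submitters' processing notes. Not given in the sources used here: versions, strand setting and annotation release. The deposited CPM values are each count relative to the library's total. The log2 fold changes and the p-values with their FDR in the deposited table are the authors'. The table lists genes above 0.5 CPM in at least 4 libraries (17209 of 17209), so it omits genes seen after pMCAO alone. 0 columns were unmapped.

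From the counts as deposited, edgeR 4.0.16 (R 4.3.3) quasi-likelihood tests were fitted over all genes with TMM factors, robust dispersions, the filter by group (which kept 17209) and group as the only term, two-sided. Adjustment was by Benjamini-Hochberg, for the 4 ratios too, with 0.05 as threshold. The biological coefficient of variation was 43.6%. The fit was tested on simulated data. A standard error is the size of the log2 change divided by the square root of F. A count of 3 in a library is 0.0825 to 0.256 CPM, for counting error only, since without molecular identifiers reads do not count molecules. Exon lengths and positions are from GENCODE M21 (GRCm38). Of the members 11 share exon bases with another annotated gene, 5 of them with a coding gene. Genes given in full were, by rule, the 5 of each arm with the smallest p, the regulators, Stard4, the highest and lowest of each arm per exon length, and 2 of each of 3 further lists; another list is not reported here. The members, lists and rule were chosen with earlier results of these data known. Alternatives were normalization, filters, DESeq2 1.42.0, limma-voom (limma 3.58.1), a replicate block, thinning, marker scores as covariates and leaving out each library. Offsets for GC content and exon length (mgcv 1.9.3) were added after seeing the data. Same-numbered libraries did not deviate together (correlations of -0.10, 0.01 and 0.18), so the numbers were not taken as pairs.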

Additional observations from a re-analysis of the deposited data

Results flagged for a closer look

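In 41 sets of the 4 sham values, 4 held a library far from the others, where chance gives about 1 in 20. Lss was at 9.12 CPM in Sham 2, below the rest. Msmo1 was at 33.2 CPM, Stard4 at 26.3 CPM and Scd1 at 33.5 CPM in Sham 1, above the rest.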

How the results depend on the processing

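Of 20 alternatives, that without the filter equals the reported fit, since the filter removed no gene. Of the other 19, 16 had 0 members called. With DESeq2 2 members were called (Fasn and Pmvk), and 1 (Fasn) each with quality-weighted limma-voom and with the filter at a mean of 5 CPM. The number of all genes called ran from 0 to 818 over the same alternatives, with 17 in the reported fit. The sterol median was negative in all 19, between -0.53 and -0.25 on leaving out single libraries. The fatty acid median had the other sign in 9 of 19. It was 0.23 with the adipocyte score as a covariate, where the sterol median minus the fatty acid median was -0.76, and between -0.14 and 0.15 on leaving out single libraries, where that difference was between -0.59 and -0.27 against -0.35 over all libraries. The cause was not tested. With the replicate block 0 members and 21 genes were called, the sterol median was -0.48 and the fatty acid median -0.14. Of the pMCAO libraries 1 of 3 deviated most like the sham library of its own number. Without scaling factors the median of all genes was -0.14 and that of the sterol enzymes -0.51. Of 33 members 17 kept their sign in every alternative that could give a value, among them Fasn, Pmvk, Srebf2, Cyp51, Fdps and Dhcr7. The groups of those named did not overlap, so leaving out a library could hardly turn their sign. The share of all genes that kept their sign was not counted. The log2 ratio of Fads1 to Fads2 changed sign in 4 of 8 alternatives and that of Scd1 to Scd2 in 2 of 8. Members at a few CPM, such as Fdps, rest on as few as 4 counts.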
